A study of Mus musculus with 12 samples.

Results

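The genes described here are 9 core genes of apoptosis, 2 initiator caspases (Casp8 and Casp9) and 7 members of the BCL2 family (Bcl2, Bcl2l1, Mcl1, Bax, Bak1, Bbc3 and Bcl2l11), chosen by gene name from the 55401 genes listed in each deposited table. Their mRNA levels were read in adult neural stem/progenitor cells (aNSPCs), cells taken from the forebrain of C57BL/6 mice aged 8 to 10 weeks and expanded in culture with EGF and FGF-2. RNA-seq covered 12 samples in 4 groups of 3: proliferating aNSPCs without NAD+ (proliferating Ctrl) or with NAD+ (proliferating NAD+), and aNSPCs under differentiation conditions without NAD+ (differentiation Ctrl) or with NAD+ (differentiation NAD+). The labels name this strain for all groups and no transgene or deletion, and all samples are cultured cells. In the study's differentiation protocol the cells received 1 µM retinoic acid and 5 µM forskolin, and the NAD+ samples for sequencing received 1 mM NAD+; how long is not given in the sources used here. The treatment label reads untreated for all 12 samples, so the groups follow the sample titles. The study calls the 3 samples of a group biological repeats, without saying whether they came from separate mice or cultures, and the p-values measure the spread between these samples.

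Apoptosis through mitochondria is set by the balance among BCL2 family proteins. BCL2, BCL-XL (encoded by Bcl2l1) and MCL1 hold back the pore-forming effectors BAX and BAK (encoded by Bak1), and the BH3-only proteins PUMA (encoded by Bbc3) and BIM (encoded by Bcl2l11) relieve that block. Open mitochondria release cytochrome c, which activates caspase 9 on the apoptosome, whereas death receptors at the cell surface activate caspase 8, and both routes converge on executioner caspases. In the adult brain many newborn cells of the stem cell niches are removed in this way. The study examined cell death of aNSPCs under NAD+. Messenger RNA measures neither the cleavage of a caspase nor the amount or binding of a BCL2 family protein.

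The values are FPKM, in which the fragments of a gene are divided by its length and by the total mapped in that sample, so levels of different genes can be set side by side. Log2 fold changes below are differences of log2(FPKM + 0.1), NAD+ minus Ctrl, which understate the change of genes with low values, and are given with their standard error (SE) and adjusted p (limma, Benjamini-Hochberg over all genes tested, two-sided). A gene was called changed at an adjusted p under 0.05. The exact permutation test of 3 against 3 samples cannot go below p = 0.1. Within each group the samples correlated at 0.958 to 0.978 across genes, and the depth of the libraries is unknown because the tables hold no counts. Proliferating Ctrl replicate 1 had the highest summed FPKM, 363330, against 308828 to 349648 in the other 11 samples. Several of the values that change with it are also given without it. Summed FPKM of 7 stem/progenitor markers was 1842 to 3095 in the proliferating samples, and that of 6 genes of dividing cells was 202 to 282 in proliferating and 20.6 to 23.7 in differentiation samples. Markers of microglia (0 to 0.39), endothelial cells (0.04 to 0.76), mural cells (0.41 to 1.42) and red blood cells (0 to 1.1) were at or near 0 in summed FPKM, and Aif1, Cx3cr1, Tmem119 and C1qa of microglia were at 0 in all proliferating NAD+ samples.

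Among the 9 genes, Mcl1 and Bcl2 were the members that changed under NAD+, both upward and both under differentiation conditions. Mcl1 encodes a short-lived survival protein on which many progenitors depend, and Bcl2 is the founding survival gene of the family. The 250 bases before their start sites are shown because both members rose under NAD+ in differentiation samples (RefSeq, GRCm38.p6, each on the strand of its gene, 5′ to 3′). Capitals mark a match to TGACG, the first letters of the cAMP response element, which is a DNA site read by factors downstream of forskolin. Forskolin belongs to the differentiation protocol and is not the difference between NAD+ and Ctrl.

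Mcl1, chr3:95658471-95658720, plus strand: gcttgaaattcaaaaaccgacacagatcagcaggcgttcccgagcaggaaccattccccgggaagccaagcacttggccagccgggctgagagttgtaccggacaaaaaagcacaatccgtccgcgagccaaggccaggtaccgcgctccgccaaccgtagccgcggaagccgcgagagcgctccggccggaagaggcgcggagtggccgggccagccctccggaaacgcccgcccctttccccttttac

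Bcl2, chr1:106714291-106714540, minus strand: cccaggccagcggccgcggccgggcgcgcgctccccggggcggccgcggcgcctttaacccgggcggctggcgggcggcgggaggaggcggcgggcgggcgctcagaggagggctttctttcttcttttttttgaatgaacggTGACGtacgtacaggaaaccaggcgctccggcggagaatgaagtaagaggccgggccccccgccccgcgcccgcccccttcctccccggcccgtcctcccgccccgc

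Both strands of 14 windows of the 9 members were searched for TGACGTCA (the whole cAMP response element), TGACG (which the whole element contains), GTAAACA (forkhead) and TTCNNNGAA (STAT). These letters occur in 1.55%, 17.8%, 3.17% and 7.02% of the 32851 promoter windows of the table. The Bcl2 window held TGACG 107 to 103 bases before the start, and the Mcl1 window held none of the 4 motifs. A Bcl2l11 window held GTAAACA 227 to 221 bases before the start, and windows of Bbc3 held TGACG at 55 to 51 and GTAAACA at 167 to 161 bases. None of the 14 windows held TGACGTCA or TTCNNNGAA. A match is a description of letters, and no binding was measured here.

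The survival genes Bcl2, Bcl2l1 and Mcl1 were compared first under differentiation conditions, where the question was what NAD+ did to cells leaving the stem cell state. Mcl1 (chromosome 3, 95658788 to 95663176, mm10) stood at 29.66, 29.87 and 28.77 FPKM in the Ctrl samples and at 42.87, 44.80 and 49.13 FPKM in the NAD+ samples. The groups did not overlap, and the Ctrl samples lay within 1.04-fold of each other. Mcl1 rose 1.55-fold between the means, with a log2 fold change of 0.63 (SE 0.061, 95% interval 0.48 to 0.77, adjusted p = 0.00613, limma). The exact permutation test gave p = 0.1, the smallest it can give.

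Bcl2 (chromosome 1, 106538178 to 106714274) was read at 2.29, 2.54 and 2.87 FPKM in differentiation Ctrl and at 3.53, 4.23 and 4.61 FPKM in differentiation NAD+. Every NAD+ sample was above every Ctrl sample. Bcl2 rose 1.61-fold between the means (log2 fold change 0.66, SE 0.13, 95% interval 0.34 to 0.98, adjusted p = 0.0376, limma; exact permutation p = 0.1). The Bcl2 call lies near the threshold: its adjusted p was 0.0573 without a filter on low values, 0.0710 without the variance trend and 0.0459 to 0.119 when single samples were left out, where it passed only without NAD+ replicate 1.

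Bcl2l1 (chromosome 2, 152780668 to 152831728), which encodes BCL-XL, was at 5.29, 5.49 and 5.51 FPKM in Ctrl and at 4.86, 5.23 and 4.70 FPKM in NAD+ under differentiation conditions. The NAD+ samples all lay below the Ctrl samples, by a small margin. Its log2 fold change of -0.14 (SE 0.072) did not pass the test (adjusted p = 0.304, limma; exact permutation p = 0.1). Thus 2 of these 3 survival genes rose and 1 did not pass. Over all genes tested the groups did not overlap for 9.68% in the higher and 21.1% in the lower direction.

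2 of the 9 members were called under differentiation conditions, beside 6.92% of the 19611 genes tested there (2.27% higher and 4.65% lower). With single samples left out, 1.68% to 3.66% of all genes were called, the lowest share without Ctrl replicate 1. The median log2 fold change of the 9 was -0.14, and that of all genes tested was -0.08. The direction of the calls over all genes depends on the scaling: 445 higher and 912 lower with FPKM as deposited became 613 higher and 532 lower after median-ratio scaling, and 580 higher and 581 lower after quantile normalization. Mcl1 and Bcl2 remained the called members under both scalings, with log2 fold changes of 0.71 and 0.74 after median-ratio scaling. The study's rule for DEGs was taken as an unadjusted p under 0.05 and more than a 2-fold change between the group means. It was applied here to the limma p and the ratio of mean FPKM, not to the study's own p-values. No member was called in this way, beside 4.05% of all genes, and these are not the study's own calls. Mcl1 and Bcl2 were the members at an unadjusted p under 0.05, beside 7.5% of all genes in the higher direction.

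Some cell type markers also differed between these groups. The 6 neuron markers overlapped, with summed FPKM of 29.89 to 35.27 in differentiation Ctrl and 30.55 to 31 in differentiation NAD+. Of these 6, 3 had a log2 fold change above 0, 3 below, and none was called. Summed FPKM of 5 astrocyte markers was 826 to 920 in differentiation Ctrl and 1217 to 1255 in differentiation NAD+, with 2 of the 5 called higher (Gfap and Slc1a2) and 1 lower (Aldh1l1). Gfap carried that difference: without it the sums were 271 to 280 in Ctrl and 250 to 273 in NAD+, which overlap. That of 5 oligodendrocyte lineage markers was 24.8 to 30.1 in Ctrl and 19.3 to 24.5 in NAD+, with 2 of the 4 tested lower at an unadjusted p under 0.05 and none called. The 7 stem/progenitor markers summed to 1091 to 1164 in Ctrl and 1175 to 1257 in NAD+, with Vim and Slc1a3 called higher and Hes5 lower. Of the 7, 3 had a log2 fold change above 0 and 4 below. Vim (means of 144 and 241 FPKM) and Slc1a3 (330 and 424) carried the higher sum, while Fabp7 had means of 449 and 369 FPKM. Without Fabp7 the sums were 650 to 696 in Ctrl and 831 to 851 in NAD+. No marker of these lists was at 0 in all samples of these groups. In these bulk samples fewer cells of a type and less RNA per cell cannot be told apart, and the part of these markers in the Mcl1 and Bcl2 values was not tested.

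**Figure D1:**
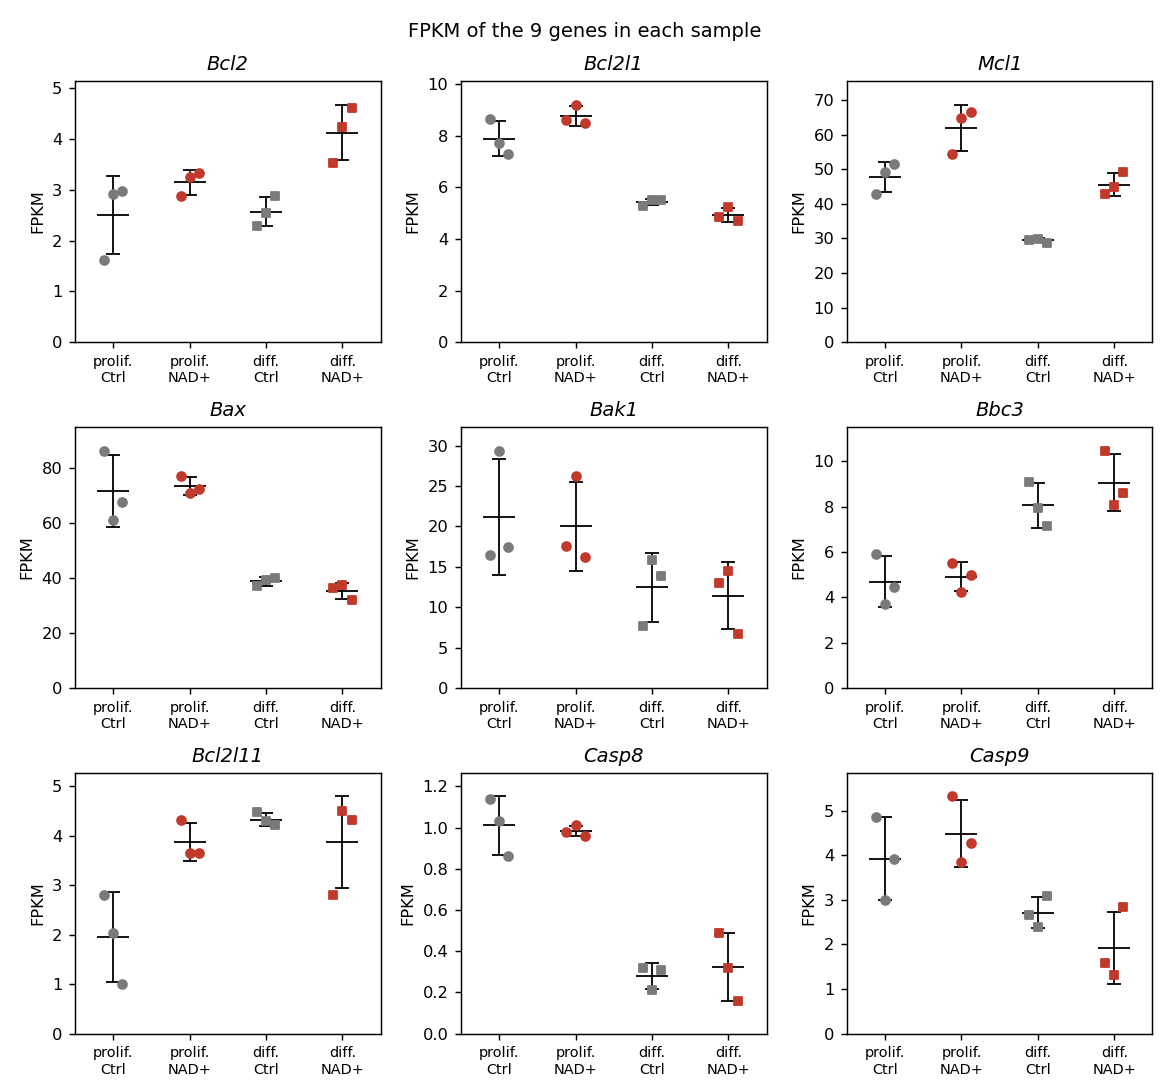
FPKM (vertical axes, linear from 0) of the 9 genes in the 4 groups; each point is 1 sample (circles proliferating, squares differentiation, grey Ctrl, red NAD+), and the bars give the mean and SD of 3 samples. The Mcl1 and Bcl2 points of differentiation NAD+ all lie above those of differentiation Ctrl, whereas Bax and Bak1 overlap between Ctrl and NAD+ in both conditions.

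Under proliferating conditions none of the 9 members was called, beside 0.145% of the 18597 genes tested (27 genes, 9 higher and 18 lower), and 0% to 0.194% with single samples left out. At an unadjusted p under 0.05 stood 2 members, Mcl1 and Bcl2l11, both higher, beside 9.35% of all genes in that direction. Without proliferating Ctrl replicate 1 there were 4, with Bcl2l1 and Bax added, all higher, beside 10.7% of all genes. The study's rule for DEGs, applied in the same way to the fits here, called no member, beside 3.01% of all genes. Bcl2l11 came nearest, at 1.98-fold between the group means, and its fitted log2 fold change, given below, is over 1. Without proliferating Ctrl replicate 1 that log2 fold change was 1.36 (unadjusted p = 0.00437, limma). The study's rule was not applied to the members with samples left out, so its result for Bcl2l11 holds for all samples only. After median-ratio scaling the called genes were 7 higher and 26 lower, and those at an unadjusted p under 0.05 were 1240 higher and 1508 lower in place of 1738 and 1126. The median log2 fold change was 0.15 over the members and 0.07 over all genes.

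Proliferating cells held Mcl1 at 42.80, 49.11 and 51.40 FPKM in Ctrl and at 54.46, 64.99 and 66.70 FPKM in NAD+. The groups did not overlap, and the means stood 1.30-fold apart. The log2 fold change of Mcl1 was 0.38 (SE 0.11, 95% interval 0.11 to 0.64, unadjusted p = 0.0133, adjusted p = 0.214, limma; exact permutation p = 0.1). Without Ctrl replicate 1 the log2 fold change of Mcl1 was 0.30 (adjusted p = 0.231, limma). Groups that do not overlap, in the higher direction, were seen for 15.5% of all genes in this comparison.

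Bcl2 was at 1.61, 2.92 and 2.98 FPKM in proliferating Ctrl and at 2.87, 3.24 and 3.32 FPKM in proliferating NAD+, so that the groups overlapped and Ctrl replicate 1 stood apart from the other samples. Its log2 fold change of 0.36 (SE 0.24, 95% interval -0.22 to 0.95, adjusted p = 0.504, limma) became 0.086 without that sample. Bcl2l1 was at 8.65, 7.72 and 7.30 FPKM in Ctrl and at 8.61, 9.20 and 8.50 FPKM in NAD+, overlapping by 1 Ctrl sample (log2 fold change 0.15, SE 0.099, adjusted p = 0.491, limma).

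The BH3-only genes sense damage and loss of growth factors and start the mitochondrial route. Bcl2l11 (chromosome 2, 128126038 to 128162547), encoding BIM, was at 2.81, 2.04 and 1.01 FPKM in proliferating Ctrl and at 4.32, 3.65 and 3.65 FPKM in proliferating NAD+. The NAD+ samples were close together and above every Ctrl sample, and the Ctrl samples spanned 2.78-fold. Between the means the NAD+ level was 1.98 times the Ctrl level, the widest ratio among the 9 members in this comparison. It did not pass the test (log2 fold change 1.06, SE 0.34, 95% interval 0.25 to 1.86, unadjusted p = 0.0176, adjusted p = 0.234, limma). The exact permutation test gave p = 0.1. Without Ctrl replicate 1, the highest Ctrl sample, the log2 fold change was 1.36 (unadjusted p = 0.00437, adjusted p = 0.119, limma).

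Under differentiation conditions Bcl2l11 was at 4.47, 4.30 and 4.21 FPKM in Ctrl and at 2.80, 4.49 and 4.31 FPKM in NAD+. Here 2 of the NAD+ samples lay within or just above the Ctrl range and replicate 1 lay below it. The log2 fold change of -0.19 (SE 0.18, adjusted p = 0.578, limma) turned to 0.024 without NAD+ replicate 1.

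Bbc3 (chromosome 7, 16308393 to 16318205), encoding PUMA, a p53 target, was at 5.92, 3.71 and 4.44 FPKM in proliferating Ctrl and at 5.52, 4.25 and 4.96 FPKM in proliferating NAD+. In differentiation samples its values were 9.10, 7.92 and 7.15 FPKM in Ctrl and 10.47, 8.08 and 8.61 FPKM in NAD+. The groups overlapped in both conditions. The log2 fold changes of Bbc3 were 0.08 (SE 0.19, adjusted p = 0.863) under proliferating and 0.16 (SE 0.13, adjusted p = 0.488) under differentiation conditions, both by limma, and the former was -0.012 after quantile normalization.

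The pore-forming effectors Bax and Bak1 did not pass the test in either condition. Bax (chromosome 7, 45461697 to 45466898) was at 86.23, 60.91 and 67.53 FPKM in proliferating Ctrl and at 77.07, 70.84 and 72.27 FPKM in proliferating NAD+, with every NAD+ sample inside the Ctrl range. The interval of its log2 fold change ran from -0.27 to 0.37 (adjusted p = 0.882, limma). Under differentiation conditions it was at 37.03, 39.15 and 39.85 FPKM in Ctrl and at 36.37, 37.22 and 32.06 FPKM in NAD+, overlapping, with a log2 fold change of -0.14 (SE 0.070, 95% interval -0.31 to 0.03, adjusted p = 0.295, limma).

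Bak1 (chromosome 17, 27019810 to 27029009) varied more within groups than between Ctrl and NAD+. It was at 16.49, 29.39 and 17.47 FPKM in proliferating Ctrl and at 17.54, 26.25 and 16.19 FPKM in proliferating NAD+. Differentiation Ctrl samples held 7.70, 15.89 and 13.89 FPKM and differentiation NAD+ samples 13.04, 14.54 and 6.67 FPKM. Its highest sample was 1.62 to 2.18 times its lowest within each group, and the log2 fold changes were -0.06 (SE 0.27, adjusted p = 0.935) and -0.14 (SE 0.37, adjusted p = 0.857) by limma. Bak1 overlaps Ggnbp1, which was read at 0.367 to 1.03 FPKM in the group means, and whether reads were counted by strand is not given in the sources used here.

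By their means the initiator caspases were among the 4 lowest members of each group, together with Bcl2 and Bcl2l11. Casp8 (chromosome 1, 58795374 to 58847503), the initiator at death receptors, was at 1.14, 1.03 and 0.86 FPKM in proliferating Ctrl and at 0.98, 1.01 and 0.96 FPKM in proliferating NAD+. Under differentiation conditions it was at 0.32, 0.21 and 0.31 FPKM in Ctrl and at 0.49, 0.32 and 0.16 FPKM in NAD+. The NAD+ samples lay inside the Ctrl range in the former and around it on both sides in the latter, and the log2 fold changes of -0.03 (SE 0.17, adjusted p = 0.956) and 0.09 (SE 0.35, adjusted p = 0.906) did not pass (limma).

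Casp9 (chromosome 4, 141793612 to 141815976), the initiator on the apoptosome, was at 4.85, 3 and 3.92 FPKM in proliferating Ctrl and at 5.32, 3.86 and 4.28 FPKM in proliferating NAD+, overlapping (log2 fold change 0.20, SE 0.20, adjusted p = 0.657, limma). Without proliferating Ctrl replicate 1 that log2 fold change was 0.37 (adjusted p = 0.370, limma). Differentiation Ctrl samples held 2.67, 2.39 and 3.08 FPKM and differentiation NAD+ samples 1.59, 1.32 and 2.84 FPKM. There 2 NAD+ samples were below the Ctrl range and 1 inside it. The log2 fold change was -0.55 (SE 0.27, 95% interval -1.21 to 0.11, adjusted p = 0.288, limma).

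**Figure D2:**
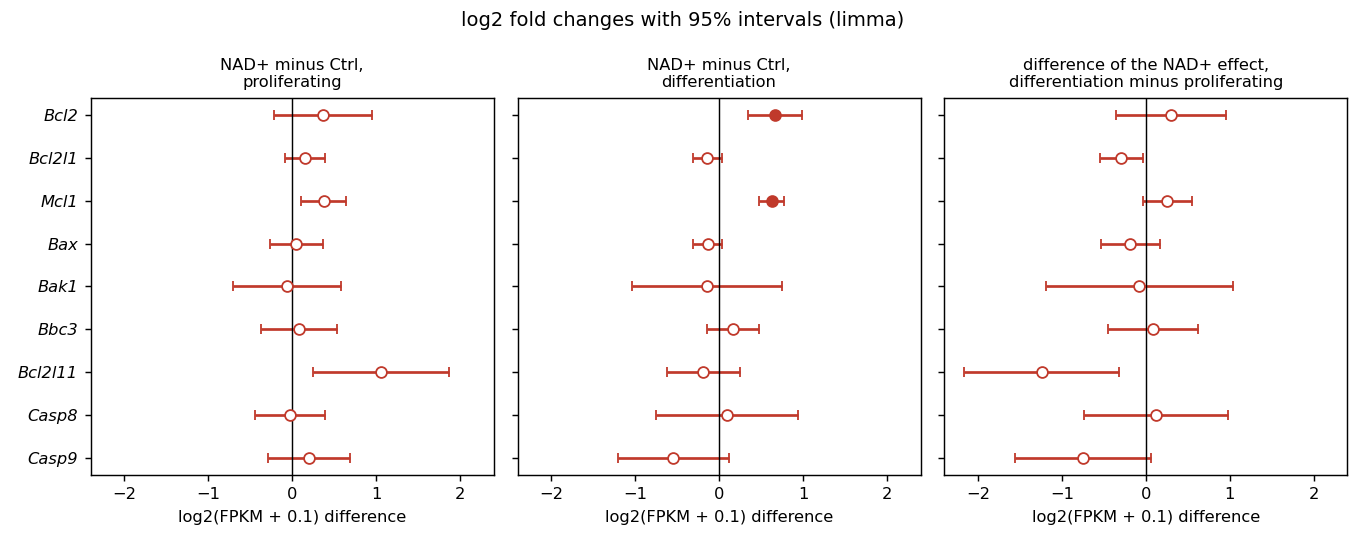
Log2 fold changes of the 9 genes on the log2(FPKM + 0.1) scale (horizontal axes) with 95% intervals from limma, for NAD+ against Ctrl in proliferating samples (left), in differentiation samples (middle) and for the difference between these effects (right); filled points have an adjusted p under 0.05. The filled points are Bcl2 at 0.66 and Mcl1 at 0.63 under differentiation conditions, and the intervals of Bcl2l11 and Bcl2l1 lie below 0 on the right although neither passed after adjustment.

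Whether the effect of NAD+ differed between the conditions was tested as an interaction over all 12 samples. None of the 9 members was called, beside 0.467% of the 19498 genes tested, and 2 members stood at an unadjusted p under 0.05, beside 15.5% of all genes. The called genes were 43 higher and 48 lower as deposited, and 70 higher and 24 lower after median-ratio scaling. The median of all genes in this comparison was -0.16 as deposited and -0.01 after median-ratio scaling, so members are read against that shift.

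Bcl2l11 gave an interaction of -1.24 (SE 0.42, 95% interval -2.16 to -0.32, unadjusted p = 0.0127, adjusted p = 0.205, limma), and -1.09 after median-ratio scaling. Its NAD+ effect was thus lower under differentiation than under proliferating conditions by estimate, without passing the adjustment. For Bcl2l1 the value was -0.29 (SE 0.12, unadjusted p = 0.0292, adjusted p = 0.269), and after median-ratio scaling it was -0.14 (unadjusted p = 0.301), by limma. Mcl1 gave 0.25 (SE 0.13, 95% interval -0.04 to 0.54, adjusted p = 0.383) and Bcl2 0.30 (adjusted p = 0.653), by limma. After median-ratio scaling Mcl1 gave 0.40 (unadjusted p = 0.00536, adjusted p = 0.192) and Bcl2 0.45 (unadjusted p = 0.134, adjusted p = 0.567), by limma. Neither passed, so the calls of these genes under differentiation conditions alone do not show that their response differed from that of proliferating cells.

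The levels of the members were also set side by side across the culture conditions. The conditions stand in separate tables, and the program that scaled them is not named, so these levels are described and not tested. In Ctrl samples 7 of the 9 members had groups that did not overlap, 2 higher and 5 lower under differentiation conditions, beside 61.8% of all genes (27.9% higher and 33.8% lower). Bbc3 and Bcl2l11 were the higher ones, at 1.72 and 2.22 times their proliferating level. Bax (0.541 times), Bak1 (0.592), Bcl2l1 (0.688), Mcl1 (0.616) and Casp8 (0.277) were the lower ones, while Bcl2 (1.03) and Casp9 (0.692) overlapped.

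With NAD+ the same comparison gave 8 members without overlap, 2 higher and 6 lower, beside 66.8% of all genes (24.8% higher and 42% lower). Bbc3 (1.84 times) and Bcl2 (1.31) were higher under differentiation conditions, and Bcl2l11 had a ratio of 0.998 and overlapped. Mcl1 was at 0.735 times its proliferating level, Bax at 0.480 and Casp9 at 0.427. After median-ratio scaling 2 members were higher, 4 lower and 3 overlapping in either treatment; Bak1 then overlapped in both and Mcl1 with NAD+. Genes of dividing cells differed by far more between the conditions, as given above, and their part in these levels was not tested.

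By level, Bax, Mcl1 and Bak1 led in proliferating Ctrl with means of 71.6, 47.8 and 21.1 FPKM, in proliferating NAD+ with 73.4, 62.1 and 20.0 FPKM and in differentiation Ctrl with 38.7, 29.4 and 12.5 FPKM, and these 3 genes did not overlap each other in any of these groups. In differentiation NAD+ the order of the first pair was reversed, with Mcl1 at 45.6 ± 3.21 FPKM and Bax at 35.2 ± 2.77 FPKM (SD, n = 3), again without overlap. Bak1 and Bbc3 overlapped in both differentiation groups, as did Bbc3 and Casp9 in both proliferating groups. Casp8 was the lowest member throughout, with means of 1.01, 0.983, 0.280 and 0.323 FPKM in proliferating Ctrl, proliferating NAD+, differentiation Ctrl and differentiation NAD+, and overlapped Bcl2l11 in proliferating Ctrl.

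The ratio of Bax to Bcl2, a customary summary of effector against survival gene, was 16.2, 15.4 and 13.9 in differentiation Ctrl and 10.3, 8.80 and 6.95 in differentiation NAD+. The groups did not overlap, and the means were 15.2 ± 1.16 and 8.69 ± 1.68 (SD, n = 3). In proliferating Ctrl it was 53.6, 20.9 and 22.7 and in proliferating NAD+ 26.9, 21.9 and 21.8. Those groups overlapped, and the proliferating Ctrl mean of 32.4 became 21.8 without replicate 1. The ratio is a description without a test.

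Summed over Bcl2, Bcl2l1 and Mcl1, FPKM was 37.15 to 37.9 in differentiation Ctrl and 51.26 to 58.44 in differentiation NAD+, and 53.06 to 61.68 in proliferating Ctrl and 65.94 to 78.52 in proliferating NAD+. Mcl1 made up 77.4% to 84.9% of that sum in every sample. Bax and Bak1 together were at 44.73 to 55.04 FPKM in differentiation Ctrl and 38.73 to 51.76 in differentiation NAD+, and at 85 to 102.72 in proliferating Ctrl and 88.46 to 97.09 in proliferating NAD+, overlapping between Ctrl and NAD+ in both conditions.

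**Figure D3:**
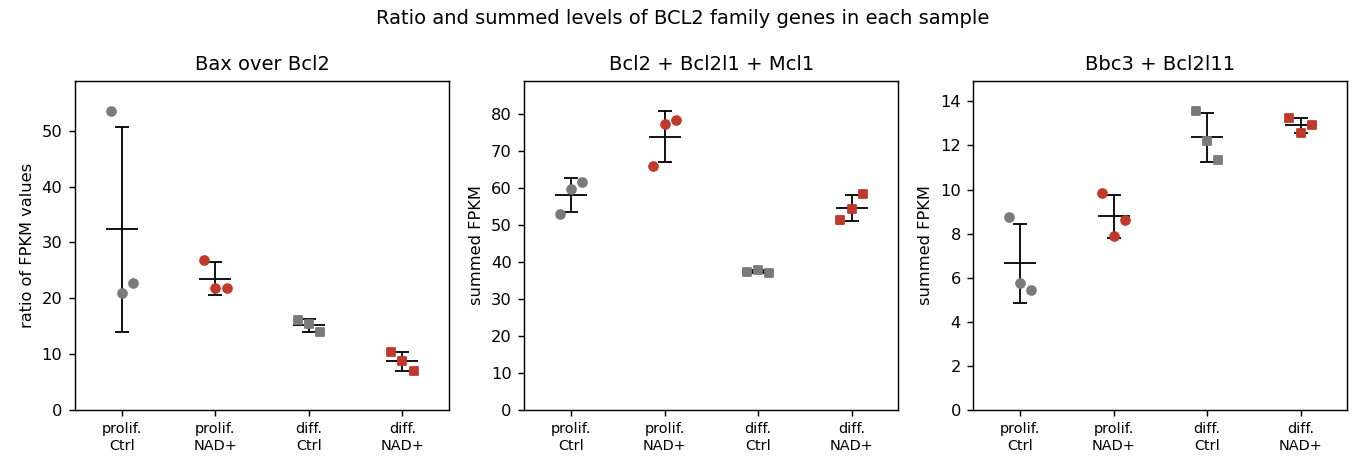
The ratio of Bax to Bcl2 (left), the summed FPKM of Bcl2, Bcl2l1 and Mcl1 (middle) and that of Bbc3 and Bcl2l11 (right), with 1 point per sample and the mean and SD of 3 samples. Proliferating Ctrl replicate 1 stands apart in the ratio at 53.6, and the survival gene sums of differentiation NAD+, from 51.26, lie above those of differentiation Ctrl, up to 37.9.

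The other genes of apoptosis were read from 7 lists of 58 genes in all. Under differentiation conditions 46 of them were tested, 2 were higher and 1 lower at an adjusted p under 0.05, beside 2.27% and 4.65% of all genes, and their median log2 fold change was 0.04 beside -0.08 over all genes. Among the caspases other than the members, 4 were tested and none was called in any comparison. Casp12, a caspase of the endoplasmic reticulum, had the smallest p, in the interaction (0.85, SE 0.21, unadjusted p = 0.00192, adjusted p = 0.106, limma). It was at 3.6, 4.27 and 4 FPKM in differentiation Ctrl and at 4.61, 5.19 and 6.22 FPKM in differentiation NAD+, and at 2.93, 4.2 and 3.77 FPKM in proliferating Ctrl and 2.79, 2.46 and 2.67 FPKM in proliferating NAD+. The NAD+ samples lay above the Ctrl samples in the former and below them in the latter. Under differentiation conditions 9.68% of all genes had groups that did not overlap in the higher direction.

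In the death receptor list 1 of 7 tested genes was called, beside 6.92% of all genes. Fas, a receptor that activates caspase 8 when its ligand binds, was at 10.15, 10.28 and 10.21 FPKM in differentiation Ctrl and at 14.73, 13.27 and 18.49 FPKM in differentiation NAD+. It rose with a log2 fold change of 0.58 (SE 0.12, adjusted p = 0.0394, limma), and leaving out single samples gave adjusted p from 0.0376 to 0.123. The Fas call was lost without any of the Ctrl samples or without NAD+ replicate 1, with no filter on low values (0.0586) and without the variance trend (0.0876). Fasl, which encodes its ligand, was too low to be tested, as was Tnfsf10, which encodes the ligand of another death receptor. In proliferating samples Fas was at 3.14, 1.78 and 2.02 FPKM in Ctrl and at 3.37, 2.37 and 1.92 FPKM in NAD+, overlapping. Its log2 fold change there was 0.14 (adjusted p = 0.836, limma), and 0.37 (adjusted p = 0.482, limma) without Ctrl replicate 1.

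Of p53 and its targets, 1 of 14 tested genes was called under differentiation conditions, beside 6.92% of all genes. With a mean of at least 1 FPKM required, Pidd1 was called as well, lower; its adjusted p was 0.0635 under the filter used throughout. Gadd45a, a growth arrest gene induced by p53 and by other stress signals, was at 5.69, 5.05 and 6.15 FPKM in Ctrl and at 11.59, 13.7 and 18.11 FPKM in NAD+, and rose with a log2 fold change of 1.33 (SE 0.17, adjusted p = 0.0110, limma). Without Ctrl replicate 1 its adjusted p was 0.0504. Of these 14 genes 3 had a value above 0 as deposited, beside 38.2% of all genes, and 10 after median-ratio scaling, so their direction depends on the scaling. Their median as deposited was -0.04 beside -0.08 over all genes, and 1 was higher and 3 were lower at an unadjusted p under 0.05. In the interaction as deposited 1 of 15 was above 0 and 14 below, with a median of -0.39 beside -0.16 over all genes, and none was called. In proliferating samples Gadd45a was at 5.1, 4.39 and 4.36 FPKM in Ctrl and at 7.71, 7.64 and 8.31 FPKM in NAD+ (log2 fold change 0.76, SE 0.11, adjusted p = 0.0600, limma), and passed without Ctrl replicate 1 (adjusted p = 0.0480).

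In the list of transcription factors of BH3-only genes, which also holds Trib3, not itself such a factor, 1 of 7 tested genes was called, beside 6.92% of all genes. Atf4, the main factor of the integrated stress response, was at 25.92, 25.56 and 23.17 FPKM in differentiation Ctrl and at 17.62, 17.34 and 16.71 FPKM in differentiation NAD+, and fell by 0.53 on the log2 scale (SE 0.061, adjusted p = 0.00869, limma). That call held in every alternative and with each sample left out (adjusted p from 0.00625 to 0.0437). In proliferating samples Atf4 was at 68.23, 44.73 and 67.37 FPKM in Ctrl and at 45.82, 50.03 and 52.05 FPKM in NAD+, overlapping.

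The remaining lists held no called gene. Of the anti-apoptotic genes beside the members only Bcl2l2 was tested, since Bcl2l10, Bcl2a1a, Bcl2a1b and Bcl2a1d were too low, and its differentiation values were 9.18, 8.49 and 9.04 FPKM in Ctrl and 8.82, 9 and 9.24 FPKM in NAD+. In proliferating Ctrl Bcl2l2 was at 2.82, 10.08 and 9.66 FPKM and in proliferating NAD+ at 10.23, 9.2 and 9.67 FPKM, so Ctrl replicate 1 was low there as for Bcl2. The log2 fold change of Bcl2l2 was 0.56 with that sample and -0.026 without it. Of 7 tested genes of the apoptosome and its inhibitors, Diablo, whose product frees caspases from their inhibitors, had the smallest p, at 5.26, 7.4 and 4.59 FPKM in differentiation Ctrl and 8.66, 8.76 and 9.29 FPKM in differentiation NAD+ (log2 fold change 0.65, SE 0.17, unadjusted p = 0.00731, adjusted p = 0.0750, limma). Without Ctrl replicate 2, the Ctrl sample nearest to NAD+, it passed (adjusted p = 0.0267). Diablo did not overlap between the groups, as was so in the higher direction for 9.68% of all genes.

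Under proliferating conditions 47 of the 58 list genes were tested and none was called, beside 0.145% of all genes, while 14 higher and 1 lower stood at an unadjusted p under 0.05, beside 9.35% of all genes in the higher direction. The median log2 fold change of these genes was 0.25 beside 0.07 over all genes, and 39 of the 47 had a value above 0, beside 59.7% of all genes. P53 and its targets were 15 of these genes, with 14 of 15 above 0, 8 at an unadjusted p under 0.05 and a median of 0.35. After median-ratio scaling 14 of 15 were still above 0, with 4 at an unadjusted p under 0.05 and a median of 0.29. No set test was run, so whether this list differs from other genes was not tested.

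Of the pro-apoptotic BCL2 family genes beside the members, all 6 tested had a value above 0 under proliferating conditions and none was called. Pmaip1, encoding the BH3-only protein NOXA, which binds MCL1, had the smallest p. It was at 1.54, 0.95 and 1.43 FPKM in proliferating Ctrl and at 3.48, 1.77 and 2.83 FPKM in proliferating NAD+, without overlap (log2 fold change 0.97, SE 0.29, unadjusted p = 0.0132, adjusted p = 0.214, limma). Under differentiation conditions Pmaip1 was at 0.71, 0.28 and 0.84 FPKM in Ctrl and at 0.96, 0.79 and 0.5 FPKM in NAD+, overlapping. Summed FPKM of the stem/progenitor markers was 2862 to 3095 in proliferating Ctrl and 1842 to 2331 in proliferating NAD+, with 3 of the 7 lower at an unadjusted p under 0.05, none called and none at 0. Fabp7 carried most of that difference: without it the sums were 830.4 to 891 and 812 to 844, which overlap. The 5 oligodendrocyte lineage markers summed to 19.9 to 20.2 in proliferating Ctrl and 12.7 to 16.3 in proliferating NAD+, with Mog at 0 in all of the former. The part of these markers in the proliferating values was not tested.

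**Figure D4:**
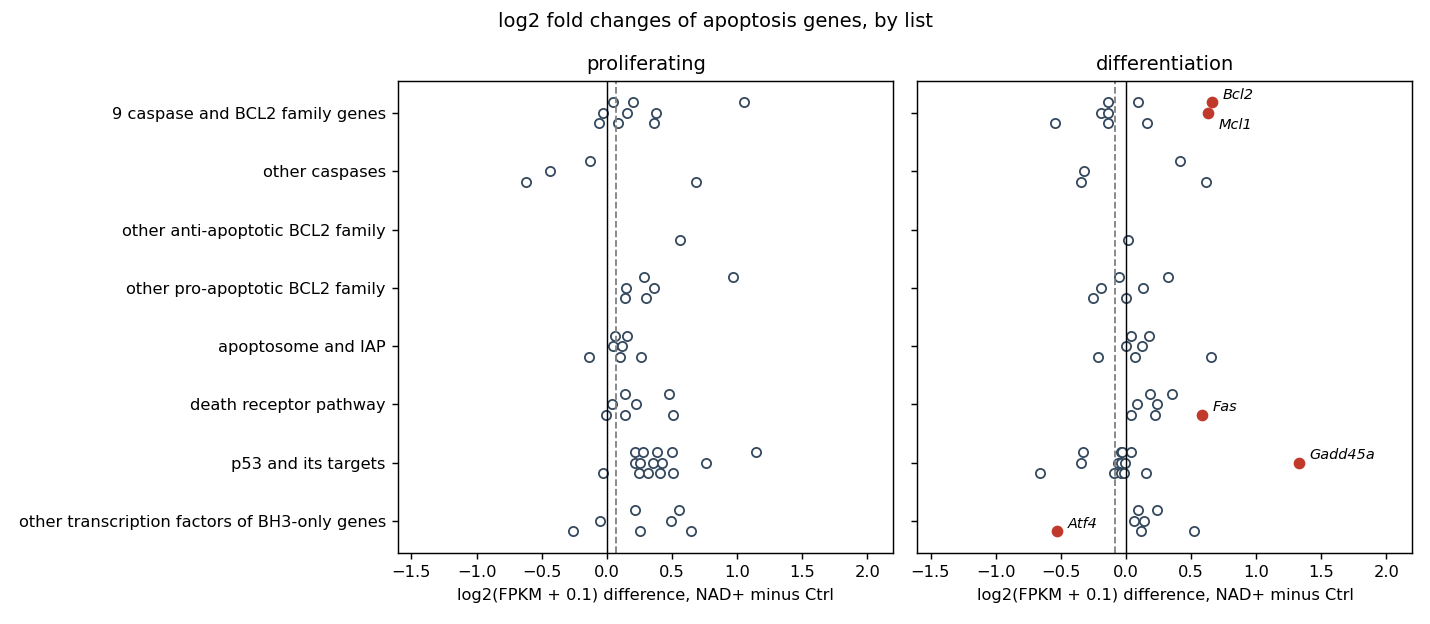
Log2 fold changes, NAD+ minus Ctrl on the log2(FPKM + 0.1) scale (horizontal axes), of the 9 genes and of the tested genes of 7 apoptosis lists, in proliferating (left) and differentiation samples (right); each point is 1 gene, filled red points have an adjusted p under 0.05, points are spread vertically for legibility, and the dashed line is the median of all genes tested (0.07 and -0.08). No point is filled on the left, and on the right Mcl1, Bcl2, Fas and Gadd45a lie to the right of 0 and Atf4 to the left.

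The genes whose pattern was most like that of Mcl1 over the 12 samples, among 12928 genes with a mean of at least 1 FPKM, were Kremen1 (Pearson r = 0.984), Arl4d (0.970) and Lypla2 (0.968). The points share libraries and fall into 4 groups, so these values describe likeness and are not tested. The means of Lypla2, for instance, were 47.1, 66.2, 25.2 and 45.8 FPKM in proliferating Ctrl, proliferating NAD+, differentiation Ctrl and differentiation NAD+, the same order of groups as for Mcl1.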

How the data were processed

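RNA-seq of 12 aNSPC samples was deposited as 2 tables, 1 per culture condition, with 55401 genes and FPKM values rounded to 0.01. Per the study's methods the authors made libraries with an NEBNext Ultra kit, used Hisat2 v2.0.5 for alignment (genome mm10) and FeatureCounts v2.0.1 for uniquely mapped reads; the program that gave the deposited FPKM and the strand setting are not given in the sources used here. The deposited FPKM divide reads by gene length and by mapped reads, so a few abundant genes can shift all others, which is why other scalings were tried. Reads could not be recovered from the rounded values, and depth is unknown. The tables also hold the authors' own fold changes, p-values, q-values and calls, which were not used.

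Genes with a mean of at least 0.1 FPKM over the samples compared were tested on log2(FPKM + 0.1) with limma 3.58.1 (R 4.3.3), with a trend in the variance, in each condition on its own and, for the interaction, over 12 samples with 1 mean per group. P-values were adjusted by Benjamini-Hochberg over all genes tested. Single values were also compared by exact two-sided permutation (scipy 1.17.1). All 9 members passed the filter in each comparison. The code was tested on simulated data with known changes. Alternatives were 1 or 0.01 added before the log, no filter or a mean of at least 1 FPKM, median-ratio scaling, quantile normalization, the replicate number as a block, limma without trend and leaving out each sample.

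Members, gene lists and marker lists were chosen with earlier results of these data known. Named were all members, each list gene with an adjusted p under 0.05 and, for a list without one, its gene with the smallest unadjusted p, the 3 genes most like the member with the smallest adjusted p, and markers by their summed range. Some genes of these lists are not reported here and were left out of the list counts and marker sums. Positions are from GENCODE (mm10), and promoter windows from RefSeq (GRCm38.p6), which held all 9 members.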

Additional observations from a re-analysis of the deposited data

How the results depend on the processing

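Mcl1 under differentiation conditions kept its direction and its call in every other fit of the adjusted test (adjusted p from 0.00426 to 0.0330) and with each sample left out (0.0174 to 0.0345), but was below the 2-fold change of the study's rule. The number of members called there was 2, and 1 with no filter on low values, 1 by limma without trend, 0 by the study's rule and 1 to 2 with single samples left out; Bcl2 was the call that was lost, with log2 fold changes of 0.58 to 0.77 with samples left out. Without a filter more genes were tested; for limma without trend the cause was not tested. No member was called under proliferating conditions or in the interaction in any alternative (0 to 0 by the adjusted test with samples left out). List genes called were 3 under differentiation conditions, 2 with no filter, 2 by limma without trend, 4 with a mean of at least 1 FPKM (Pidd1 added, lower) and 1 to 3 with samples left out. Under proliferating conditions they were 0, and 1 (Gadd45a) with a mean of at least 1 FPKM and 0 to 1 with samples left out. Members whose Ctrl samples did not overlap between the conditions were 7 as deposited, 6 after median-ratio scaling and 7 to 8 with samples left out.

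Some small values changed sign, none of them called: Bax in proliferating samples was -0.015 after median-ratio scaling, Bbc3 there -0.012 after quantile normalization, and the Bak1 interaction 0.071 and 0.027 under these scalings. With single samples left out, proliferating values ran from -0.13 to 0.057 for Casp8, -0.057 to 0.19 for Bax, -0.27 to 0.20 for Bak1 and -0.069 to 0.26 for Bbc3. Differentiation values ran from -0.19 to 0.40 for Casp8, -0.45 to 0.20 for Bak1 and -0.31 to 0.024 for Bcl2l11. Interaction values ran from -0.16 to 0.43 for Casp8, -0.39 to 0.27 for Bak1 and -0.096 to 0.23 for Bbc3. The mean Bax to Bcl2 ratio ran from 21.8 to 38.1 in proliferating Ctrl, 21.8 to 24.4 in proliferating NAD+, 14.6 to 15.8 in differentiation Ctrl and 7.88 to 9.55 in differentiation NAD+. Of the values of single members with a sample left out, 188 kept direction and call, 23 changed sign and 5 kept direction but lost the call. In the other fits these counts were 207, 4 and 2.

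Replicate numbers are shared between Ctrl and NAD+, but nothing says that they mark a shared culture. Deviations of same-numbered samples correlated at 0.021 to 0.11 in proliferating and 0.026 to 0.043 in differentiation samples, so the samples were taken as unpaired; 4 of 6 and 6 of 6 samples correlated best with their own number. With the replicate block the calls over all genes were 0 in place of 27 under proliferating conditions, and 275 higher and 483 lower in place of 445 and 912 under differentiation conditions. Mcl1 (adjusted p = 0.0311) and Bcl2 (0.0405) stayed called under differentiation conditions with the block, so 2 members were called. Gadd45a (0.0292) and Atf4 (0.0288) stayed called as well, while Fas (0.0713) did not pass. The p53 target Cdkn1a passed there, lower under NAD+ (log2 fold change -0.34, adjusted p = 0.0424). Its interaction passed too (-0.62, adjusted p = 0.0490), all by limma with the block. In proliferating samples Mcl1 stood at 0.185 and Bcl2l11 at 0.213 with it, and 0 members were called there and in the interaction.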

Other observations

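The genes of this paragraph were chosen after their values were seen, and their levels across the conditions are descriptions without a test. In Ctrl cells the BH3-only gene Bmf, which responds to loss of attachment, had a mean of 2.31 FPKM in proliferating and 17.5 FPKM in differentiation samples, 7.58 times as much (6.46 times with NAD+). Hrk, a BH3-only gene of neurons, went from 0.0933 to 0.67 FPKM in the same comparison. Fas had a mean of 2.31 FPKM in proliferating and 10.2 FPKM in differentiation Ctrl, a ratio of 4.41, and the ratio with NAD+ was 6.07. The effector relative Bok stood at 7.67 FPKM in proliferating and 1.38 FPKM in differentiation Ctrl. Cycs, which encodes cytochrome c of the respiratory chain and the apoptosome, stood at 67.2 and 12.1 FPKM, and Birc5, the inhibitor survivin that also acts in mitosis, at 13.1 and 0.797 FPKM. None of these genes overlapped between the conditions in Ctrl or in NAD+ samples, as deposited or after median-ratio scaling, beside 61.8% (Ctrl) and 66.8% (NAD+) of all genes as deposited.

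E2f1, a cell cycle factor that can induce BH3-only genes, was at 4.14, 4.75 and 5.45 FPKM in proliferating Ctrl and at 6.08, 8.98 and 7.64 FPKM in proliferating NAD+ (log2 fold change 0.64, SE 0.17, adjusted p = 0.178, limma); this gene and the next 2 were likewise chosen after their values were seen. The p53 target Ccng1 was at 80.41, 75.95 and 73.28 FPKM in proliferating Ctrl and at 127.62, 98.84 and 100.69 FPKM in proliferating NAD+ (log2 fold change 0.50, SE 0.12, adjusted p = 0.141), and under differentiation conditions at 58.49, 65.52 and 54.4 against 56.08, 66.39 and 51.52 FPKM. Its interaction was -0.54 (SE 0.17, unadjusted p = 0.00852, adjusted p = 0.181, limma). Trp53 itself had log2 fold changes of -0.03 (adjusted p = 0.894) and -0.06 (adjusted p = 0.767) in the 2 conditions.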
